A study of Homo sapiens with 7 samples.

Results

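The late phase of recovery from 44 °C was read as the difference between the array of cells kept for 12 h at 37 °C after the heat and the array of cells kept for 6 h, which are 2 of the 7 arrays of the study. HSC-3 is an established line from a human oral squamous cell carcinoma. Both cultures had 90 min at 44 °C, with no other agent in the labels, and differ in the hours of recovery. The cells collected 12 h and 6 h after 90 min at 42 °C serve for comparison, and the arrays of unheated cells and of cells collected at once (0 h) enter only the scaling, the floor and the choice of 1 probe set per gene. Total RNA of 1 sample per condition was hybridised to 1 Affymetrix array with 54675 probe sets, so each value below is a difference between a pair of arrays, has no replicate check and was not tested.

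After heat shock the transcription factor HSF1 switches on chaperone genes (the HSP70, HSP40 and small heat shock protein families), and in cells that recover these messenger RNAs decline once proteins are refolded. Immediate early genes such as FOS and EGR1 usually rise and decline soon after a stimulus. Lasting protein damage can switch on the ATF4 arm of the integrated stress response, whose targets include CHOP (DDIT3) and CHAC1. The study was made to profile genes in heat-induced death of these cells.

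Values are probe set intensities on a linear scale, as the authors deposited them. Intensities below 21.35, the pooled median of all 7 arrays, were set to this floor, so a fold that involves a value under it is a lower bound. A gene entered the comparison, and is counted as tested below, if it reached the floor at 12 h or 6 h, which 12891 of 19775 genes did. The 12 h array was the dimmer of the pair above the floor: over the 23298 probe sets that reached the floor on both, the median log2 difference (12 h minus 6 h) was -0.24, although the medians of all probe sets were 19.23 at 12 h and 19.26 at 6 h. All 18 hybridization control probe sets, which are added in equal amounts to each array, were lower at 12 h, by a median of -0.33 (range -0.71 to -0.13), while the 24 poly(A) controls had a median of 0.08. The part of this dimming in the results was not tested. The ratio of the 3′ to the 5′ actin probe set, a measure of RNA integrity, was 1.22 at 12 h and 1.19 at 6 h. A gene is therefore said to have risen or fallen only where it differed by at least 2-fold (1 log2 unit) under 3 scalings, namely as deposited, after quantile normalization of the 7 arrays, and after removal of the median shift. In a population of cells, fewer cells of a type and less RNA per cell cannot be told apart.

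The 5 markers of squamous epithelium with a value read over 1000 on both arrays, and 1 of them, DSP (desmoplakin), was lower at 12 h by 1.5-fold under all 3 scalings (-0.92 log2 units as deposited and -0.68 after quantile normalization). The basal keratin genes KRT14 and KRT5 read 14028 and 7660 at 12 h, against 13889 and 8760 at 6 h. E-cadherin (CDH1) read 1073 at 12 h and 1304 at 6 h, and the integrin gene ITGB4 1824 at 12 h and 2289 at 6 h. Of 10 fibroblast markers 2 reached the floor at 12 h and 5 at 6 h, with summed intensities of 436 at 12 h and 533 at 6 h, most of it COL1A1 (273 at 12 h and 307 at 6 h). Of 8 leukocyte markers with a value 5 reached the floor at each time, with sums of 219 at 12 h and 216 at 6 h and a highest value of 53.9 at 12 h and 47.5 at 6 h (CD79A). Of 10 endothelial markers 2 reached it at 12 h and 1 at 6 h, with sums of 109 at 12 h and 81.9 at 6 h.

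Of the HSP70, HSP40, HSP90, small heat shock protein and immediate early genes only HSPB8 passed the threshold after 44 °C, and its other probe set differed by only 0.10. These lists have 8, 11, 11, 8 and 25 tested genes, so such a count is near the share over all genes. The genes that did pass were few and mostly dim. In all, 146 genes rose (1.13% of those tested) and 155 fell (1.2%). These shares stand beside each count of risen or fallen list members at 44 °C below. Of the genes that rose 75 lay below the floor at 6 h, and of those that fell 90 lay below it at 12 h. Among 8423 bright genes, which reached 4 times the floor (85.4) at 12 h or 6 h, 28 rose (0.332%) and 37 fell (0.439%). Among the 4660 genes that reached 16 times the floor (341.67), only 5 rose (0.107%) and 4 fell (0.0858%). Probe sets of the same gene give a measure of technical spread: their differences disagreed with an SD of 0.24 log2 units over 3108 genes with probe sets at or past 85.4 on both arrays, and of 0.48 over 1445 genes with probe sets between the floor and that level.

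**Figure D1:**
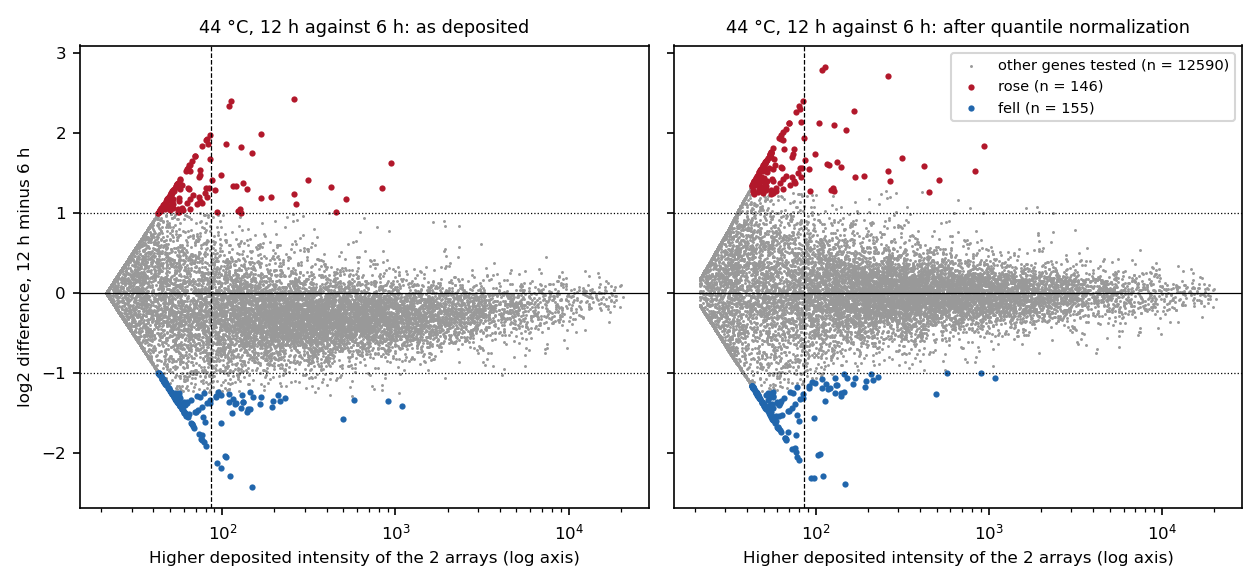
Difference of every tested gene at 44 °C (y axis, log2 units, 12 h minus 6 h) against its higher deposited intensity (x axis, log scale), as deposited on the left and after quantile normalization on the right; red genes rose, blue genes fell and grey genes did neither, dotted lines mark 2-fold and the dashed line marks 4 times the floor. The cloud lies below 0 as deposited and around 0 after normalization, the called genes crowd at low intensity, and the straight left edges are values set to the floor.

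The balance of higher and lower genes followed the scaling. At 2-fold, 146 genes were higher (1.13%) and 321 lower (2.49%) as deposited. After quantile normalization 347 were higher (2.69%) and 262 lower (2.03%), and after the median shift 326 were higher (2.53%) and 158 lower (1.23%). The median over all tested genes was -0.23 as deposited, -0.001 after quantile normalization and -0.004 after the shift. The shift was not the same at each level: as deposited, 47.9% of the genes whose mean of both arrays lay between 1 and 2 times the floor were lower at 12 h (median 0.02), against 89.0% of the 2823 genes with a mean between 342 and 1367 (median -0.30). Differences of single genes below are as deposited unless stated, so a gene at -0.23 moved with the array.

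Ranked by the smallest difference of the 3 scalings, DHRS2, a short-chain dehydrogenase/reductase, came before LOC389199, which was the higher after quantile normalization (2.79 against 2.72) and without the floor (4.32 against 2.43). DHRS2 read 261 at 12 h and 48.3 at 6 h, a 5.39-fold rise, and its other probe set was higher by 2.65 log2 units. Other probe sets are given for some genes and not for all. Those given belong to that gene alone and reached the floor at 12 h or 6 h. IL1RL1, the receptor of interleukin-33, read 167 at 12 h and 42.0 at 6 h (3.96-fold), and its other 2 probe sets were higher by 1.11 and 1.36. ARID5B, a DNA-binding protein with an AT-rich interaction domain, was the brightest of the risen genes, with 937 at 12 h and 303 at 6 h (3.10-fold). No other probe set of ARID5B reached the floor at 12 h or 6 h, so this rise rests on a single probe set.

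Some leading rises, grouped here after the ranking was seen, were in proteases and a collagen. MMP3, the matrix protease stromelysin-1, read 422 at 12 h and 168 at 6 h (2.51-fold). COL2A1, the chain of type II collagen, read 836 at 12 h and 337 at 6 h (2.48-fold), with 1.30 on its other probe set. KLK6, a secreted kallikrein protease, read 139 at 12 h and 56.3 at 6 h (2.47-fold), and ADAM33, a membrane metalloprotease, 105 at 12 h and 28.7 at 6 h (3.64-fold). These 4 all stood above the floor at both times. The invasion and mesenchymal list, which holds MMP3 and COL2A1, had no other risen member among 23 tested, and its median was -0.17 as deposited and 0.13 after quantile normalization.

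Further leading rises were in a chaperone, a small GTPase, a cyclin and noncoding RNAs. HSPB8, a small heat shock protein that acts with BAG3 in the removal of misfolded proteins, read 314 at 12 h and 118 at 6 h (2.66-fold), but its other probe set differed by only 0.10. RRAD, a Ras-related GTPase that inhibits calcium channels, read 98.4 at 12 h and 35.4 at 6 h (2.78-fold), with 1.73 on its other probe set. CCNA1, the cyclin expressed mainly in the germ line, read 116 at 12 h and 45.6 at 6 h (2.54-fold). The scaffold protein gene IQGAP2 rose 3.55-fold, the RNA-binding protein gene RBM24 2.53-fold and the long noncoding RNA LINC01119 2.59-fold. LOC389199, a noncoding RNA gene, lay below the floor at 6 h and was at least 5.08-fold higher at 12 h, with 109. ANXA2P3 (3.36-fold) is a pseudogene of annexin A2, and its probe set may also bind transcripts of the parent gene.

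The largest falls reached genes that were dim at 12 h. AAAS, a protein of the nuclear pore, read 27.4 at 12 h and 148 at 6 h, a 5.41-fold fall with no other probe set past the floor. GATAD2B, a subunit of the NuRD chromatin remodelling complex, read 22.6 at 12 h and 110 at 6 h (4.89-fold), with -0.55 on its other probe set. GNAO1, a G protein alpha subunit, lay below the floor at 12 h and read 97.8 at 6 h, a fall of at least 4.58-fold. MBLAC1, a nuclease of the metallo-beta-lactamase family, also lay below the floor at 12 h and read 93.4 at 6 h, a fall of at least 4.37-fold. APLN, the peptide ligand apelin, read 25.0 at 12 h and 103 at 6 h (4.12-fold), and SPINT1-AS1, an antisense RNA, 25.5 at 12 h and 106 at 6 h. None of these 6 genes exceeded 27.4 at 12 h, close to the floor.

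Further leading falls were in single genes of DNA repair, transcription and ribosome assembly. LIG3, a DNA ligase of excision repair and of mitochondria, read 51.5 at 12 h and 141 at 6 h (2.74-fold), and its other 4 probe sets lay between -0.75 and -0.13. CLSPN (claspin), needed for the checkpoint at stalled replication forks, read 53.03 at 12 h and 145 at 6 h (2.73-fold), with 3 other probe sets between -0.81 and -0.25. CDK9, the kinase that releases paused RNA polymerase II, read 72.0 at 12 h and 193 at 6 h (2.68-fold), against -0.05 on its other probe set. RRP1, a nucleolar protein of ribosome assembly, read 39.8 at 12 h and 113 at 6 h (2.84-fold), with -1.35 on its other probe set. The remaining leading falls were FIZ1 (2.81-fold, with -0.02 on its other probe set), the noncoding RNA NRAV (2.62-fold), the torsin family gene TOR2A (2.60-fold), the RAB7 effector gene RILP (2.57-fold) and SPINDOC, which encodes a partner of spindlin 1 (2.57-fold).

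**Figure D2:**
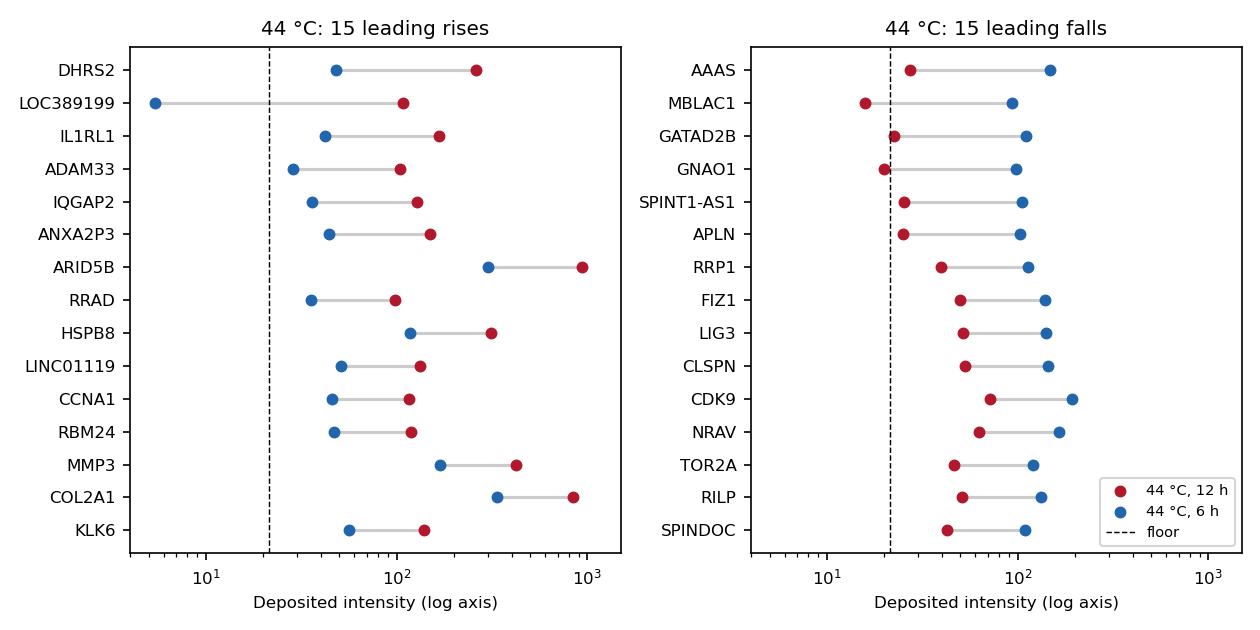
Deposited intensity (x axis, log scale) of the 15 leading rises (left) and 15 leading falls (right) on the 44 °C arrays, red for 12 h and blue for 6 h, 1 array each; the dashed line is the floor of 21.35 and points left of it are values under it. ARID5B, COL2A1, MMP3 and HSPB8 are the rises with the highest intensities, and no leading fall exceeds 193 at 6 h.

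Among genes at 16 times the floor or more, 5 rose: ARID5B, MMP3, COL2A1, COX3 and SPTY2D1, a histone chaperone (453 at 12 h and 225 at 6 h, with -0.17 on its other probe set). The 4 that fell were SLC25A37, the mitochondrial iron importer mitoferrin (166 at 12 h and 497 at 6 h), YARS2, the mitochondrial tyrosyl-tRNA synthetase (408 at 12 h and 1090 at 6 h), the nucleotidase gene NT5C2 (353 at 12 h and 902 at 6 h) and PHAX, the export adaptor of small nuclear RNAs (228 at 12 h and 575 at 6 h). YARS2 and NT5C2 have no other probe set past the floor, the other 2 probe sets of PHAX differed by -0.81 and -0.30, and the other 9 of SLC25A37 spread from -0.36 to 0.98.

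At a threshold of 1.5-fold under all 3 scalings, 19 of these 4660 genes were higher (0.408%) and 61 lower (1.31%). The examples given here and in the next paragraph were picked after their values were seen. DUSP6, the phosphatase of ERK, read 1648 at 12 h and 893 at 6 h, though its other 2 probe sets differed by 0.14 and 0.32. GEM, a relative of RRAD, read 920 at 12 h and 537 at 6 h. The pseudokinase gene TRIB1 read 1937 at 12 h and 1088 at 6 h, with 0.85 on its other probe set, and FOXO3, a forkhead transcription factor of stress responses, 590 at 12 h and 376 at 6 h, with 0.38 and 0.45. The nuclear noncoding RNA MALAT1 read 1899 at 12 h and 1013 at 6 h, and its other 10 probe sets spread from -0.21 to 1.22.

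Among the lower ones were a pair of adhesion genes. DSP (desmoplakin, which anchors keratin filaments to desmosomes) read 2973 at 12 h and 5615 at 6 h. ITGA6, the integrin alpha 6 chain of hemidesmosomes, read 2169 at 12 h and 4212 at 6 h, with -0.28 on its other probe set. These were the only 2 of 20 basal keratin and adhesion genes lower by 1.5-fold under all 3 scalings, next to 5.35% of all tested genes, and the list had medians of -0.33 as deposited and -0.05 after quantile normalization, next to -0.23 and -0.001 over all genes tested. Of the other lower genes, TNFRSF1A, the main receptor of tumour necrosis factor, read 261 at 12 h and 560 at 6 h. OGT, the enzyme that adds O-GlcNAc to proteins, read 520 at 12 h and 1056 at 6 h, and its other 4 probe sets were all lower, between -0.96 and -0.64. ETS1, a transcription factor, read 1758 at 12 h and 3213 at 6 h, CHCHD1, a subunit of the mitochondrial ribosome, 2029 at 12 h and 4137 at 6 h, and KEAP1, the inhibitor of NRF2, 221 at 12 h and 413 at 6 h.

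Chaperone genes read about as high at 12 h as at 6 h after 44 °C. HSPA6, the strictly inducible HSP70, read 8788 at 12 h and 7596 at 6 h, and HSPH1, an HSP110 chaperone, 9202 at 12 h and 7706 at 6 h. The other 2 probe sets of HSPH1 differed by -0.28 and 0.55. HSPA1L, a further HSP70 gene, read 662 at 12 h and 345 at 6 h, which is 0.94 as deposited and 1.16 after quantile normalization. It thus passed 1.5-fold and not 2-fold under all 3 scalings, and its other probe set differed by only 0.30. Of the 8 tested HSP70 and HSP110 genes none rose or fell (background 1.13% and 1.2% of all genes), and the list had medians of 0.03 and 0.22. Medians of lists are given as deposited first and after quantile normalization second. HSPA1A, HSPA1B and HSPA8 share their probe sets with other genes in the platform annotation and are not part of these counts.

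Among the cochaperones and small heat shock proteins 1 gene rose. DNAJB1, the HSP40 partner of HSP70, read 6989 at 12 h and 7004 at 6 h, with 0.49 on its other probe set. BAG3, an HSP70 cochaperone, read 5148 at 12 h and 4378 at 6 h. HSPB1, which encodes HSP27, read 3139 at 12 h and 2052 at 6 h, and was higher by 1.5-fold under all 3 scalings. CRYAB, alpha B crystallin, read 325 at 12 h and 218 at 6 h. Of 8 small heat shock protein and BAG genes 1 rose (HSPB8) and none fell, with medians of 0.17 and 0.38. Of 11 HSP40 genes none passed 2-fold under all 3 scalings, although DNAJB2 read 35.4 at 12 h and 83.4 at 6 h. The HSP90 list (11 genes, medians -0.16 and -0.004) and the TRiC chaperonin list (7 genes, -0.15 and 0.01) had no risen or fallen member.

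No immediate early gene rose or fell, which is near the shares of 1.13% and 1.2% over all tested genes. FOS read 804 at 12 h and 848 at 6 h, its AP-1 partner JUN 1940 at 12 h and 2047 at 6 h, and the zinc finger factor EGR1 4594 at 12 h and 3849 at 6 h. The other 3 probe sets of JUN lay between -0.05 and 0.49, and the other 2 of EGR1 differed by -0.24 and 0.47. In the list of EGR, KLF, IER and related genes none of 25 rose or fell, but 20 lay above 0 after quantile normalization, with medians of 0.15 as deposited and 0.40. The 5 members higher by 1.5-fold under all 3 scalings (4.62% of all genes were) were ZFP36, which destabilises AU-rich messenger RNAs (202 at 12 h and 109 at 6 h), the orphan nuclear receptors NR4A2 (140 at 12 h and 80.2 at 6 h) and NR4A3 (41.1 at 12 h and 26.7 at 6 h), SRF (54.5 at 12 h and 34.4 at 6 h) and KLF2 (36.3 at 12 h and 23.9 at 6 h). KLF6 read 1019 at 12 h and 922 at 6 h, with its other 4 probe sets between -0.06 and 0.58, and MYC 1608 at 12 h and 1746 at 6 h.

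In the phosphatase and Sprouty, the ID, HES and HEY, the GADD45 and the small GTPase lists 3 genes rose. Of all tested genes 1.13% rose and 1.2% fell. DUSP1, a phosphatase of stress kinases, read 1918 at 12 h and 1329 at 6 h, and SPRY2, a Sprouty inhibitor of receptor signalling, 264 at 12 h and 168 at 6 h. Of 14 phosphatase and Sprouty genes none rose or fell, with medians of 0.03 and 0.29. ID2, an inhibitor of helix-loop-helix factors, read 2892 at 12 h and 2996 at 6 h, and GADD45B, a stress sensor, 2339 at 12 h and 1571 at 6 h. Of 10 ID, HES and HEY genes 1 rose, BHLHE40, a repressor of the circadian clock (190 at 12 h and 82.8 at 6 h, 2.29-fold, with 0.61 on its other probe set). Of 13 stress-induced small GTPase genes 2 rose, RRAD and RASL11A (47.5 at 12 h and 21.8 at 6 h, close to the floor of 21.35). RASD1 read 623 at 12 h and 759 at 6 h.

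**Figure D3:**
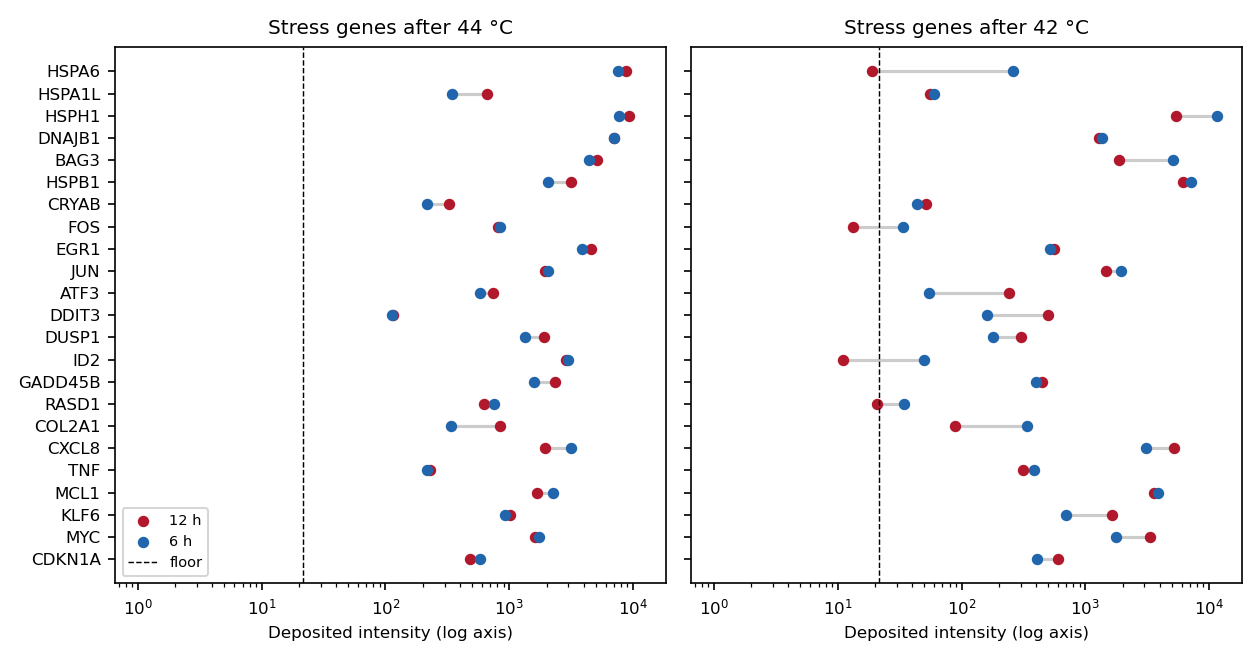
Deposited intensity (x axis, log scale) of 23 stress genes at 12 h (red) and 6 h (blue) after 44 °C (left) and 42 °C (right), 1 array each; the dashed line is the floor. After 44 °C the widest gaps are those of COL2A1 and HSPA1L (0.30 log2 units on the other HSPA1L probe set). After 42 °C HSPA6, HSPH1 and BAG3 are lower at 12 h and ATF3, DDIT3 and KLF6 higher.

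To show what lies upstream of leading genes and of chaperone genes, the 250 bases before the RefSeq start (GRCh38.p14) of 8 genes were searched on both strands: DHRS2, LOC389199, IL1RL1, AAAS, GATAD2B, GNAO1, HSPA6 and DNAJB1. The motifs were a heat shock element (GAANNTTCNNGAA or TTCNNGAANNTTC), a cyclic AMP response element (TGACGTCA) and an AP-1 site (TGANTCA), none of which overlapped in these 8 windows. DNAJB1, chosen with HSPA6 as a gene with known heat shock elements, had no match, so this search can miss such elements. The 3 windows with a match are shown 5′ to 3′ along the gene with the matches in capitals. That of HSPA6, which did not pass the threshold, is chr1:161524290-161524539 (plus strand) and holds 1 heat shock element and 2 AP-1 sites. That of IL1RL1, which rose, is chr2:102337007-102337256 (plus strand) and holds 1 AP-1 site, and that of GNAO1, which fell, is chr16:56191239-56191488 (plus strand) and holds 1 cyclic AMP response element.
HSPA6: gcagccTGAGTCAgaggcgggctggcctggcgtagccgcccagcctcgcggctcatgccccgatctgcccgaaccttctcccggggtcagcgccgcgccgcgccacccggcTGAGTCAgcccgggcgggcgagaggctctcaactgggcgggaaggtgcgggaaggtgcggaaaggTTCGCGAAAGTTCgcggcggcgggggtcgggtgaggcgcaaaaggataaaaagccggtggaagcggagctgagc
IL1RL1: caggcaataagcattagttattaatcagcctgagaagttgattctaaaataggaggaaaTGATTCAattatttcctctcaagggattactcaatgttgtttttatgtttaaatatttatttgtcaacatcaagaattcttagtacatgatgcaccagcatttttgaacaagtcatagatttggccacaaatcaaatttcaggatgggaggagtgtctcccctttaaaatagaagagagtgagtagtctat
GNAO1: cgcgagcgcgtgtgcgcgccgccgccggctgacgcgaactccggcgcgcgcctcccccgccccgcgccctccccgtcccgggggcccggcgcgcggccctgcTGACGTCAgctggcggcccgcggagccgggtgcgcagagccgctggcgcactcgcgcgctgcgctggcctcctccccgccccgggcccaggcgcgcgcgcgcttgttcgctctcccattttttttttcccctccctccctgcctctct
Over all 27305 RefSeq promoters of this length, 0.440% held the heat shock element, 1.77% the cyclic AMP response element and 6.60% the AP-1 site. Over the 10413 tested genes with a promoter the shares were 0.365%, 2.90% and 4.14%. Of 102 risen genes with a promoter in the table, 0 held the heat shock element, 2 the cyclic AMP response element and 6 the AP-1 site. Of 124 fallen genes 0, 2 and 6 did. With a share of 0.365% over tested genes, 0 heat shock elements in sets this small is near that share and shows no lack of them. The shares with the cyclic AMP response element and with the AP-1 site were thus 1.96% and 5.88% in risen and 1.61% and 4.84% in fallen genes, each from 2 or 6 genes, and were not tested.

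Genes of the integrated stress response lay near the median of the array. ATF3 read 746 at 12 h and 582 at 6 h, and its other 2 probe sets differed by -0.06 and 0.63. DDIT3 (CHOP) read 115 at 12 h and 112 at 6 h, and DDIT4, an inhibitor of mTOR, 1092 at 12 h and 1247 at 6 h. CHAC1, which degrades glutathione, read 28.6 at 12 h and lay below the floor at 6 h. None of 23 genes of the ATF4 list rose or fell, and the list had medians of -0.24 as deposited and 0.04 after quantile normalization, next to -0.23 and -0.001 over all genes. The list of the ER unfolded protein response (19 genes, medians -0.14 and 0.09) had no risen or fallen member either.

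The mitosis, DNA replication and homologous recombination lists had medians below those over all tested genes (-0.23 as deposited and -0.001 after quantile normalization). No member of them rose or fell, which is near the shares of 1.13% and 1.2% over all tested genes. Genes with a mean between 342 and 1367 had a median of -0.30 as deposited and -0.01 after quantile normalization. Of 27 mitotic genes none rose or fell, 23 lay below 0 after quantile normalization, and the medians were -0.44 as deposited and -0.19. CCNA2, the cyclin of S phase and mitosis, read 894 at 12 h and 1600 at 6 h. Of 32 DNA replication genes 24 lay below 0 after quantile normalization (medians -0.39 and -0.10), among them the helicase subunit gene MCM3 (2049 at 12 h and 3448 at 6 h), the clamp gene PCNA (3607 at 12 h and 5910 at 6 h) and the clamp loader gene RFC2 (753 at 12 h and 1392 at 6 h). Of 18 homologous recombination and DNA damage genes 14 lay below 0 (medians -0.53 and -0.23), with BRCA1 at 237 at 12 h and 407 at 6 h. The genes named here are lower members, while 4 mitotic, 8 DNA replication and 4 homologous recombination and DNA damage genes lay above 0 after quantile normalization. Members of a list share the same pair of arrays, and these counts were not tested.

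No gene of the p53, BCL2 family, caspase and NF-kB lists rose or fell, which is near the shares of 1.13% and 1.2% over all tested genes. CDKN1A (p21), the p53 target that halts the cell cycle, read 482 at 12 h and 579 at 6 h, and of 19 p53 targets none rose or fell (medians -0.25 and 0.04). MCL1, a short-lived anti-apoptotic protein, read 1667 at 12 h and 2258 at 6 h, and its other 5 probe sets lay between -0.75 and 0.17. The 10 genes of the anti-apoptotic BCL2 family and IAP list had medians of -0.43 and -0.13. Caspases and death receptors (19 genes, medians -0.34 and -0.05) had no risen or fallen member. The chemokine gene CXCL8 read 1951 at 12 h and 3149 at 6 h and TNF 227 at 12 h and 216 at 6 h. In the NF-kB list (23 genes, medians -0.15 and 0.12) IL6 was higher by 1.5-fold under all 3 scalings (164 at 12 h and 107 at 6 h), as was RELB (109 at 12 h and 72.2 at 6 h), and TNFAIP2 was lower (94.8 at 12 h and 182 at 6 h).

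The interferon response list held 1 of the few falls, MX2, an antiviral GTPase, which lay below the floor at 12 h and read 44.0 at 6 h (at least 2.06-fold lower). With MX2, 4 of 25 members were lower by 1.5-fold under all 3 scalings (5.35% of all genes were) and none higher: RIGI, the sensor of viral RNA, read 77.2 at 12 h and 174 at 6 h, GBP1 70.5 at 12 h and 143 at 6 h, and IFIT1 lay below the floor at 12 h and read 38.0 at 6 h. The list had medians of -0.34 and -0.08. In the squamous differentiation list SPRR3, a cornified envelope protein, rose 2.19-fold (75.9 at 12 h and 34.7 at 6 h), and the 14 tested members had medians of 0.07 and 0.29.

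**Figure D4:**
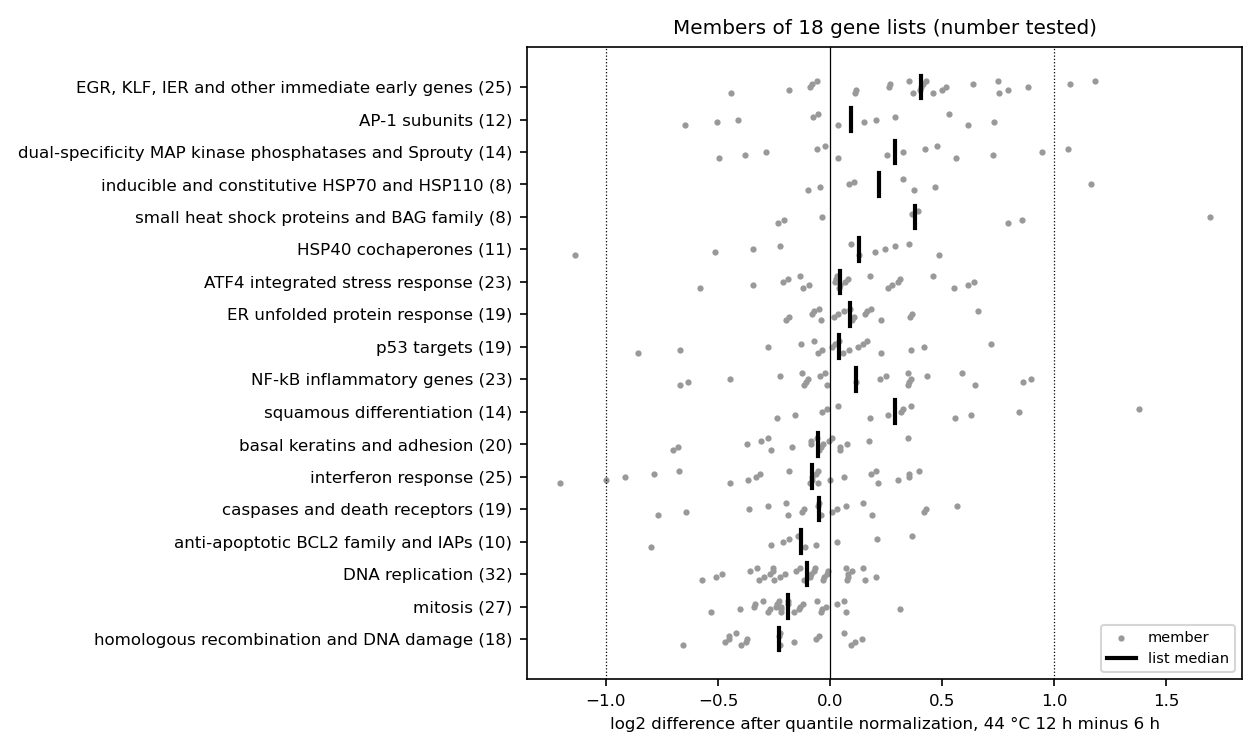
Difference between 12 h and 6 h after 44 °C (x axis, log2 units after quantile normalization) of each tested member (grey point) of 18 gene lists, with the list median as a black bar and dotted lines at 2-fold. Among these 18 lists the highest medians are 0.40 for immediate early genes and 0.38 for small heat shock proteins. The lowest are -0.19 for mitosis and -0.23 for homologous recombination and DNA damage. Other lists reached 0.45 (TXNIP and arrestin-domain genes, 6 tested) and -0.24 (heat shock transcription factors, 4 tested).

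A few single genes of other lists passed the threshold. COX3, a respiratory chain subunit encoded in mitochondrial DNA, read 518 at 12 h and 230 at 6 h (2.25-fold), while the other 6 mitochondrially encoded genes differed by -0.14 to 0.27. COX1 read 14437 at 12 h and 15948 at 6 h, and COX2 13192 at 12 h and 11371 at 6 h. ARRDC4, an arrestin-domain protein of glucose uptake, read 260 at 12 h and 110 at 6 h (2.36-fold), next to 1501 at 12 h and 1197 at 6 h for its relative TXNIP. VMP1, a membrane protein of autophagy, read 51.9 at 12 h and 23.9 at 6 h (2.17-fold). The clock gene NPAS2 lay below the floor at 6 h and was at least 2.54-fold higher at 12 h, but its other probe set differed by -0.09. PAN2, the deadenylase that starts messenger RNA decay, read 26.0 at 12 h and 65.9 at 6 h (2.53-fold lower). Of 321 zinc finger genes with a ZNF symbol 6 rose and 7 fell, next to 1.13% and 1.2% of all tested genes. Their medians were -0.15 and 0.06. Of 76 genes with an MRPL or MRPS symbol (mitochondrial ribosomal proteins and the antisense gene MRPL20-AS1) none rose or fell, which is near those shares. Their medians were -0.32 and -0.08. None of these counts was tested.

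The same hours after 42 °C were read on a pair of arrays that shares none with the 44 °C pair. The median shift of that pair was -0.09, and its hybridization controls differed by a median of 0.003. There 171 of 12601 genes rose (1.36%) and 152 fell (1.21%), of which 85 and 97 were among 9017 bright genes (0.943% and 1.08%). At 16 times the floor 27 of 5664 genes rose (0.477%) and 32 fell (0.565%), against 5 and 4 of 4660 at 44 °C. The difference between the 2 temperatures was not tested, and the counts at each temperature followed the scaling. Over all tested genes, quantile normalization alone gave 202 higher and 154 lower at 42 °C, against 347 and 262 at 44 °C. The median shift alone gave 227 higher and 211 lower at 42 °C, against 326 and 158 at 44 °C.

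Some chaperone genes that did not pass the threshold at 44 °C fell at 42 °C, and 11 of 22 tested ATF4 list genes rose there. HSPA6 lay below the floor at 12 h after 42 °C and read 262 at 6 h. HSPH1 read 5402 at 12 h and 11590 at 6 h, and HSPA4L 467 at 12 h and 1095 at 6 h, so that 3 of 8 HSP70 and HSP110 genes fell at 42 °C against none of 8 at 44 °C. No member of the HSP40, HSP90 and TRiC lists rose or fell at 42 °C. The level could still differ between the temperatures: DNAJB1 read 1299 at 12 h and 1354 at 6 h after 42 °C, against 6989 and 7004 after 44 °C. BAG3 read 1864 at 12 h and 5070 at 6 h after 42 °C. The ATF4 list had a median of 0.91 as deposited at 42 °C, while at 44 °C none of 23 rose and the median was -0.24. CHAC1 read 310 at 12 h after 42 °C and lay below the floor at 6 h, DDIT3 read 498 at 12 h and 160 at 6 h, and ASNS, asparagine synthetase, 1764 at 12 h and 617 at 6 h, where the 44 °C arrays had 433 at 12 h and 521 at 6 h.

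Of the 146 genes that rose at 44 °C 8 fell at 42 °C, which is 5.48% of the first and 5.26% of the second list, and 6 rose at both (4.11% and 3.51%). Of all genes tested at 42 °C 1.21% fell and 1.36% rose. The 8 are CCNA1, COL2A1, HSPB8, IQGAP2, LMF1, MMP3, PNLDC1 and ZNF92, of which LMF1, PNLDC1 and ZNF92 were picked after their values were seen. MMP3 read 422 at 12 h and 168 at 6 h after 44 °C, and 258 at 12 h and 1419 at 6 h after 42 °C. HSPB8 read 314 at 12 h and 118 at 6 h after 44 °C, and 96.3 at 12 h and 491 at 6 h after 42 °C. COL2A1 read 836 at 12 h and 337 at 6 h after 44 °C, and 88.8 at 12 h and 337 at 6 h after 42 °C, so that the readings were alike at 6 h and apart at 12 h. Of the 155 genes that fell at 44 °C 2 rose at 42 °C, PNRC1 and TUBA4B, and 5 fell at both.

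**Figure D5:**
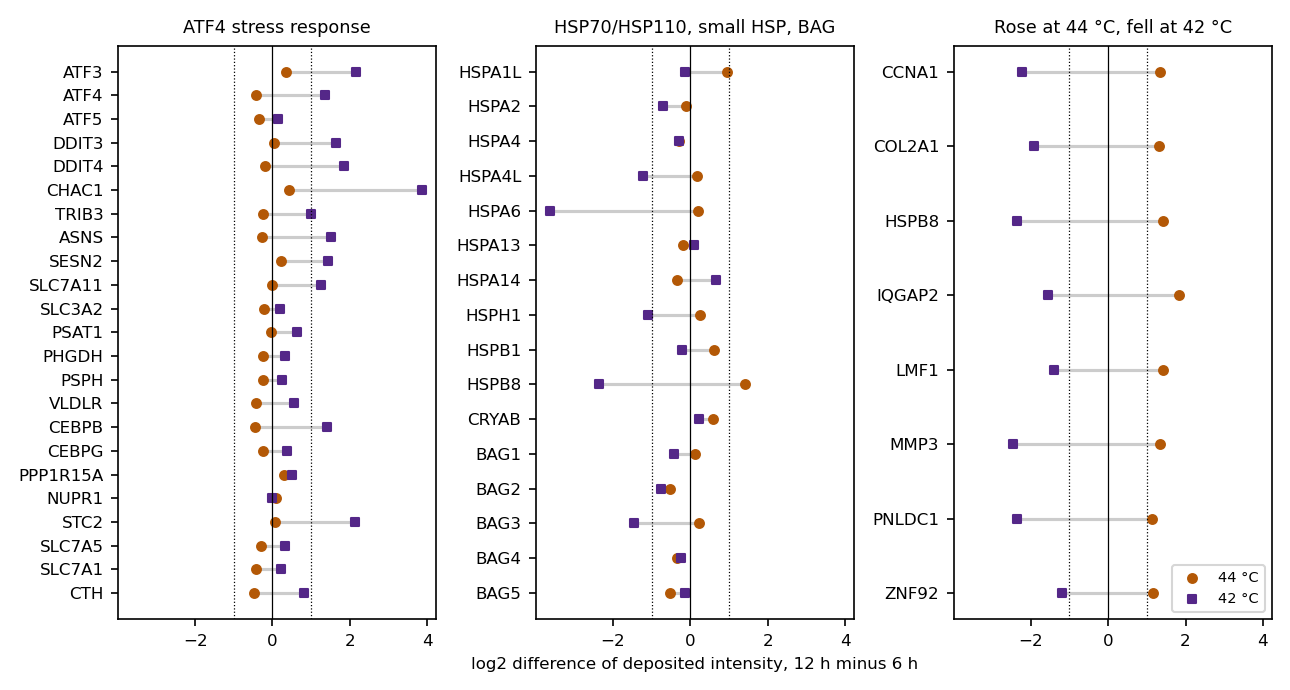
Difference between 12 h and 6 h (x axis, log2 units, deposited values with the floor) after 44 °C (orange circles) and 42 °C (purple squares) for 23 ATF4 list genes, for the HSP70, HSP110, small heat shock protein and BAG genes, and for the 8 genes that rose at 44 °C and fell at 42 °C; dotted lines mark 2-fold and NUPR1 lay below the floor on both 42 °C arrays. The orange points of the first 2 panels lie within 1 unit of 0 except HSPB8, while CHAC1 lies at 3.86 and HSPA6 at -3.62 on the 42 °C arrays.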

How the data were processed

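The deposited values are probe set intensities on a linear scale for 54675 probe sets on each of 7 arrays. Whether the authors scaled the arrays, and how they summarised each probe set, was not given in the sources used here. Array medians lay between 18.7 and 32.1. For labelling, 5 µg of total RNA was taken per sample, per the labels' protocols. There was 1 array per condition, so genes were called by size (2-fold under all 3 scalings) and no test was made, and the number of arrays limits the precision. Where several probe sets list a gene alone, the brightest on average over the 7 arrays was used (41097 probe sets list 1 gene, 1801 several and 11777 are not listed), and 41043 of the 41097 were matched to a gene table of GRCh38.p14 for current symbols and chromosomes. The 54 gene lists, the 24 fixed genes (23 with a value) and the comparison itself were chosen with earlier results of these data known.

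Genes named are the 15 largest rises and 15 largest falls among called bright genes, provided that other probe sets of the gene, if they passed the floor, pointed the same way, up to 3 called members each way of every list, and the fixed genes, 61 in all. Other genes, among them members of a list named for the 1.5-fold threshold, were named after their values were seen. So were the limit of 16 times the floor and the lists of all ZNF and of all MRPL and MRPS genes. Scripts used Python 3.11.15 with NumPy 2.4.6 and pandas 2.3.3 and were tested on simulated data. Alternatives were other scalings, floors, thresholds and probe set choices.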

Additional observations from a re-analysis of the deposited data

Results flagged for a closer look

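For 4 genes that were bright at both temperatures, the difference between 12 h and 6 h had opposite signs after 44 °C and after 42 °C, past 2-fold under all 3 scalings each way. With 1 array per condition this was not tested. The gap between the differences (44 °C minus 42 °C, log2 units) was 3.79 for MMP3 (1.33 after 44 °C and -2.46 after 42 °C) and 3.76 for HSPB8 (1.41 and -2.35, with 0.10 on the other HSPB8 probe set after 44 °C). It was 3.56 for CCNA1 (1.34 and -2.22) and 3.23 for COL2A1 (1.31 and -1.92).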

How the results depend on the processing

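Counts depended on the scaling, the floor and the threshold. For genes higher at 12 h after 44 °C (146), quantile normalization alone gave 347, the median shift alone 326, quantile normalization of the pair of arrays 234 and a shift by the hybridization controls 446. For genes lower after 44 °C (155), the deposited values alone gave 321 and quantile normalization alone 262. For genes lower after 42 °C (152), the deposited values alone gave 268 and the hybridization control shift 269. The counts below are for 44 °C higher, 44 °C lower, 42 °C higher and 42 °C lower in that order. Without a floor they were 669, 524, 520 and 462, with a floor at 2 times the pooled median 28, 37, 78 and 91, and among bright genes 28, 37, 85 and 97. With the mean of all probe sets of a gene they were 80, 67, 92 and 77, at 1.5-fold 595, 690, 780 and 796, and at 3-fold 19, 15, 20 and 20. Fewer genes can pass a higher floor or threshold by construction, and for the other settings the cause was not tested. Leaving out probe sets that can bind several transcripts kept all 4 counts within 1.5 times. None of the 61 named genes past the threshold and no list with a called member reversed under the settings run. With the mean of probe sets 17 of the 61 moved by more than the SD between probe sets. Against the deposited values 28 moved that far after the median shift, 13 after quantile normalization and 3 without the floor. With the mean of probe sets some of the 15 leading rises stayed under 2-fold: ADAM33 (0.93), IQGAP2 (0.91), HSPB8 (0.76) and ARID5B (0.33). So did these leading falls: FIZ1 (-0.76), CLSPN (-0.76), TOR2A (-0.69), GNAO1 (-0.55), LIG3 (-0.50) and CDK9 (-0.49). In that mean a probe set below the floor at both times counts as 0. With 1 array per condition no array could be left out. No paired analysis was possible because each condition has 1 array and the labels give no replicate numbers.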

Other observations

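Some lists without a risen or fallen gene held members that differed by 1.5-fold under all 3 scalings at 44 °C, as did 4.62% of all tested genes upward and 5.35% downward. In the hypoxia and glycolysis list (26 genes, medians -0.13 as deposited and -0.02 after quantile normalization) 3 were higher. They were ANKRD37 (203 at 12 h and 122 at 6 h), the glycolysis regulator PFKFB4 (56.7 at 12 h and 31.0 at 6 h) and the aldolase gene ALDOC (49.0 at 12 h and 27.1 at 6 h). The oxygen sensor gene EGLN3 of the same list was lower (33.5 at 12 h and 67.8 at 6 h), with 0.19 on its other probe set. In the TGF-beta and BMP list (21 genes) the higher members were the pathway inhibitors SMAD7 (78.0 at 12 h and 44.4 at 6 h) and BAMBI (141 at 12 h and 93.2 at 6 h). In the invasion and mesenchymal list, where MMP3 and COL2A1 rose, SNAI1, a repressor of E-cadherin, was higher (331 at 12 h and 214 at 6 h), and read below the floor at both times after 42 °C. HMOX1, heme oxygenase 1, was higher as well (56.1 at 12 h and 33.9 at 6 h), 1 of 18 NRF2 list genes. These genes were picked after their values were seen, and the differences were not tested.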
